A study of Mus musculus with 6 samples.

Results

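The genes described here are 10 genes of chondrocyte hypertrophy and matrix mineralization: Col10a1, Spp1, Ibsp, Dmp1, Bglap, Bglap2, Alpl, Phospho1, Enpp1 and Ank. They were found by their symbols among the 15803 genes of the expression table, each in 1 row, and all 10 were among the 12155 genes tested. Growth plate cartilage of mouse embryos at E18.5 was sequenced as 6 mRNA libraries. The 3 libraries with the label CKO are from embryos of the genotype Col2a1-Cre;Hnrnpk fl/fl and the 3 with the label WT are from Hnrnpk fl/fl embryos, so both genotypes carried the floxed Hnrnpk alleles. Cre was driven by the Col2a1 promoter, which is active in the chondrocyte lineage. Which other cells in the dissected cartilage kept Hnrnpk cannot be read from these libraries. CKO 1, for example, stands below for the library labelled CKO with replicate number 1. The comparison asked how the loss of Hnrnpk, an RNA-binding protein, in chondrocytes altered the mRNA of genes that mark the end of the chondrocyte life and the start of bone matrix.

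In the growth plate, chondrocytes stop dividing, enlarge and surround themselves with collagen X before their matrix calcifies. Mineral forms where phosphate is released and its inhibitor pyrophosphate is removed, and acidic secreted proteins then bind to the crystals. Col10a1 encodes collagen X, the collagen of hypertrophic cartilage. Spp1 (osteopontin), Ibsp (bone sialoprotein) and Dmp1 (dentin matrix protein) encode acidic phosphoproteins of mineralized matrix, and their genes lie in a cluster on chromosome 5. Bglap and Bglap2 encode osteocalcin, a vitamin K-dependent protein made by mature osteoblasts. Alpl encodes tissue-nonspecific alkaline phosphatase, which removes pyrophosphate, and Phospho1 a phosphatase that frees phosphate inside matrix vesicles. Enpp1 makes pyrophosphate outside the cell and Ank carries it, or its precursor, out of the cell.

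The libraries held between 1153871 and 1454094 reads on genes, and levels are given as counts per 1000000 reads (CPM). A level of 3 reads or fewer, which is 2.06 to 2.6 CPM depending on the library, was treated as the floor of detection, and intervals on reads cover counting error only. CKO 1 and CKO 3 were nearly alike, with a mean chi-square per gene of 1.29 where counting error alone gives 1 (p = 1.40e-59), and the value for WT 1 and WT 2 was 2.06. CKO 2 stood apart from CKO 1 and CKO 3 with values of 14.2 and 13.1, and WT 3 from WT 1 and WT 2 with 9.43 and 8.65, against 18.8 to 24.7 between genotypes. The labels do not say whether each library came from another embryo, so p-values measure the spread between these libraries, which may be technical, and the members are also given with CKO 1 and CKO 3 counted as 1 library, or with WT 1 and WT 2 counted as 1 library as well (both pairs merged). The reads of the targeted gene did not separate the genotypes. Hnrnpk (ENSMUSG00000021546) had 842 to 955 CPM in the libraries labelled WT and 759 to 949.9 CPM in those labelled CKO (log2 fold change -0.14, limma adjusted p = 0.622), and the table gives 1 value per gene, which does not separate the floxed exons from the rest.

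The promoters of 4 members are shown because they stand for the different patterns that follow: Spp1 was high in each library labelled CKO, Ibsp and Bglap were high in CKO 1 and CKO 3 but not in CKO 2, and Col10a1 did not separate the genotypes. RefSeq windows on GRCm38.p6 were found for 9 of the 10 members. Each line gives the 250 bases 5′ of the RefSeq start of transcription on the gene's own strand, and capitals mark the letters ACCACA or its reverse complement TGTGGT, the core recognized by Runx factors, which are regulators of hypertrophy and bone formation. The windows are chr5:104434861-104435110 on the plus strand, chr5:104299037-104299286 on the plus strand, chr3:88384467-88384716 on the minus strand and chr10:34389731-34389980 on the plus strand.
Spp1 promoter: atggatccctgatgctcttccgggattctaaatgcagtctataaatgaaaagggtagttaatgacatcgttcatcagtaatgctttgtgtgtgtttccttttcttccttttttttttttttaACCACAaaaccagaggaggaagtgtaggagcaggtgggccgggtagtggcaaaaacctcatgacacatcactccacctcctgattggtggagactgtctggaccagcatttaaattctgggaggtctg
Ibsp promoter: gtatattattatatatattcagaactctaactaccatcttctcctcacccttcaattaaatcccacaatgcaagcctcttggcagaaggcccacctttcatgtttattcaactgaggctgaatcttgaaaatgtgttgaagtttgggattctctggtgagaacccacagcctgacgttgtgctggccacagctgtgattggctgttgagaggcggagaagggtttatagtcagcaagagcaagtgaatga
Bglap promoter: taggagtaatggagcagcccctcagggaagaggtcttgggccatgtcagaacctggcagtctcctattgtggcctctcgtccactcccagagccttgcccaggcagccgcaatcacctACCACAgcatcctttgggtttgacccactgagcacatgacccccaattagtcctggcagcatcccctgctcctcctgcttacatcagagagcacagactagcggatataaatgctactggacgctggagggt
Col10a1 promoter: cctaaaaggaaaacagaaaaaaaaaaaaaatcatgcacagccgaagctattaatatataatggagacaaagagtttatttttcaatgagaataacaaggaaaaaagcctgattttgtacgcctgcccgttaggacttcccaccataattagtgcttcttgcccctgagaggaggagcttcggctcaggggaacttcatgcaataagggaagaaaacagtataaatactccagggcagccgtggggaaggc
Counted from the base before the start as -1, the core began at position -128 in the Spp1 window shown and at position -132 in the Bglap window. It was absent from the other Spp1 window, which is not shown, and from the Ibsp and Col10a1 windows. The RefSeq start behind the Ibsp window lies 116 bases from the GENCODE start. The same letters were present on either strand in 14.0% of the 32851 promoter windows of this length, and a match is a description of the sequence only. Among the other members, the core was also present in the Enpp1 window, at position -144, and in 1 of the 2 Dmp1 windows, at position -164. Of all windows, 12.4% held the letters TATAAA on either strand, as did the first Spp1 window and those of Ibsp, Bglap and Col10a1.

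Spp1 rose in the libraries labelled CKO and was the 1 member of 10 that passed limma's adjusted threshold of 0.05, where 3.18% of all genes tested were called higher and 2.6% lower. Spp1 (ENSMUSG00000029304; GRCm38 chromosome 5, 104435118 to 104441050, plus strand) had 1037, 1095 and 3769 CPM in WT 1, WT 2 and WT 3, against 11114, 11877 and 12045 CPM in CKO 1, CKO 2 and CKO 3. The groups did not overlap, which was so for 14.5% of all genes tested in the direction of higher CKO levels. The means were 1967 ± 1561 CPM (SD, n = 3) and 11679 ± 496 CPM (SD, n = 3), a 5.94-fold difference, and the log2 fold change (log2FC) on the log2(CPM + 1) scale was 2.84 (SE 0.40, limma adjusted p = 0.00403). An exact two-sided permutation test of 3 against 3 libraries gave p = 0.1, the smallest that it can give. For this and each other gene, a change in the number of cells of a type and a change in RNA per cell cannot be told apart in bulk libraries. This 1 gene took 0.104% to 0.377% of all reads in the libraries labelled WT and 1.11% to 1.20% in those labelled CKO. Most of the spread lay within WT, where WT 3 held 3.54 times the level of WT 1 and WT 2 pooled (95% interval 3.38 to 3.71 from the reads). Without WT 3 the log2FC was 3.45 (limma adjusted p = 4.03e-06). With CKO 1 and CKO 3 as 1 library and WT 1 and WT 2 as 1 library, it was 2.54 and no longer passed (limma adjusted p = 0.129).

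**Figure D1:**
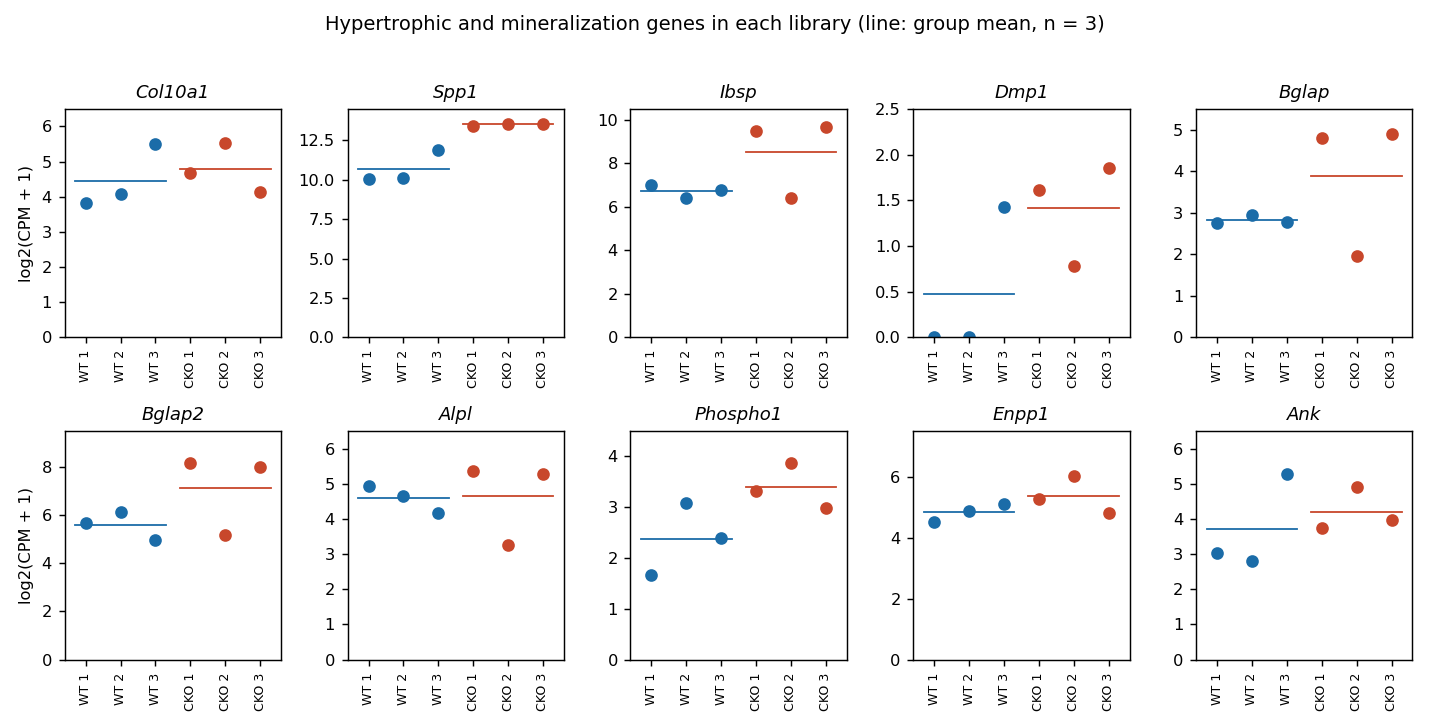
The level of each of the 10 members, as log2(CPM + 1), is plotted for each of the 6 libraries, with WT in blue, CKO in red and a line at the mean of each group on this scale. Spp1 is above every WT library in all 3 CKO libraries, whereas CKO 2 lies within the range of the WT libraries for Ibsp and Bglap2 and below it for Bglap and Alpl.

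Ibsp lies in the same gene cluster as Spp1 but split the libraries labelled CKO. Its levels (ENSMUSG00000029306; chromosome 5, 104299171 to 104311469, plus strand) were 129, 82.5 and 109 CPM in WT 1, WT 2 and WT 3, and 708, 83.0 and 808 CPM in CKO 1, CKO 2 and CKO 3. CKO 1 and CKO 3 were thus 6.63 and 7.56 times the WT mean, and CKO 2 was 0.777 times it. The 115 reads of CKO 2 against 1962 reads in CKO 1 and CKO 3 put these 2 libraries 9.06-fold above it (95% interval 7.51 to 11.04). Over all libraries the log2FC was 1.78 (SE 0.68), which had an unadjusted p = 0.0257 and missed the adjusted threshold (limma adjusted p = 0.166). Without CKO 2 it was 2.84 (SE 0.19, limma adjusted p = 1.68e-05), a value that rests on the 2 libraries labelled CKO that were nearly alike. With those 2 counted as 1 library it was 1.25 (limma adjusted p = 0.410), and with both pairs merged 1.21 (limma adjusted p = 0.596). On the recovered reads of all 6 libraries, the adjusted p of Ibsp was 0.0629 with edgeR's quasi-likelihood test and 0.0821 with DESeq2.

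Dmp1, the third gene of this cluster among the members, could barely be detected. Its reads (ENSMUSG00000029307; chromosome 5, 104202613 to 104214102, plus strand) numbered 0, 0 and 2 in the libraries labelled WT and 3, 1 and 3 in those labelled CKO. All libraries lay at or under the floor of 3 reads, so no fold change is given. Compared per kilobase of exon, the WT means were 1194 CPM for Spp1, 51.7 CPM for Ibsp and 0.204 CPM for Dmp1, and the CKO means were 7087, 258 and 0.649 CPM, so the order of these levels was the same in both genotypes.

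The osteocalcin genes had the same library pattern as Ibsp at lower levels. Bglap2 (ENSMUSG00000074486; chromosome 3, 88377736 to 88378699, minus strand) had 50.7, 69.0 and 30.4 CPM in WT 1, WT 2 and WT 3, and 289.5, 35.4 and 257 CPM in CKO 1, CKO 2 and CKO 3. Bglap (ENSMUSG00000074483; chromosome 3, 88383501 to 88384464, minus strand) had 5.80, 6.75 and 5.91 CPM in the libraries labelled WT and 26.8, 2.89 and 28.6 CPM in CKO 1, CKO 2 and CKO 3. CKO 2 fell inside the WT range for Bglap2 and below it for Bglap, where it held 4 reads. CKO 1 and CKO 3 together were 7.78-fold above CKO 2 for Bglap2 (95% interval 5.82 to 10.6) and 9.56-fold above it for Bglap (95% interval 3.58 to 36.0).

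The log2FC values over all libraries were 1.53 for Bglap2 (SE 0.66, limma adjusted p = 0.214) and 1.04 for Bglap (SE 0.67, limma adjusted p = 0.405). Without CKO 2 they were 2.5 for Bglap2 (limma adjusted p = 5.53e-04) and 2.01 for Bglap (limma adjusted p = 0.00323). With CKO 1 and CKO 3 as 1 library they were 1.05 (limma adjusted p = 0.484) and 0.56 (limma adjusted p = 0.747), and with both pairs merged 1.2 (limma adjusted p = 0.593) and 0.57 (limma adjusted p = 0.817). The 2 genes are near copies, with 98.9% identity over 439 aligned bases of their transcripts and an identical run of 241 bases, so the split of reads between them is uncertain. The ratio of Bglap2 to Bglap reads was 5.14 to 10.2 in the libraries labelled WT and 9 to 12.2 in those labelled CKO. Bglap3, the related gene next to them, had 0 reads in all libraries but CKO 2, where it had 0.722 CPM, the level of 1 read.

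**Figure D2:**
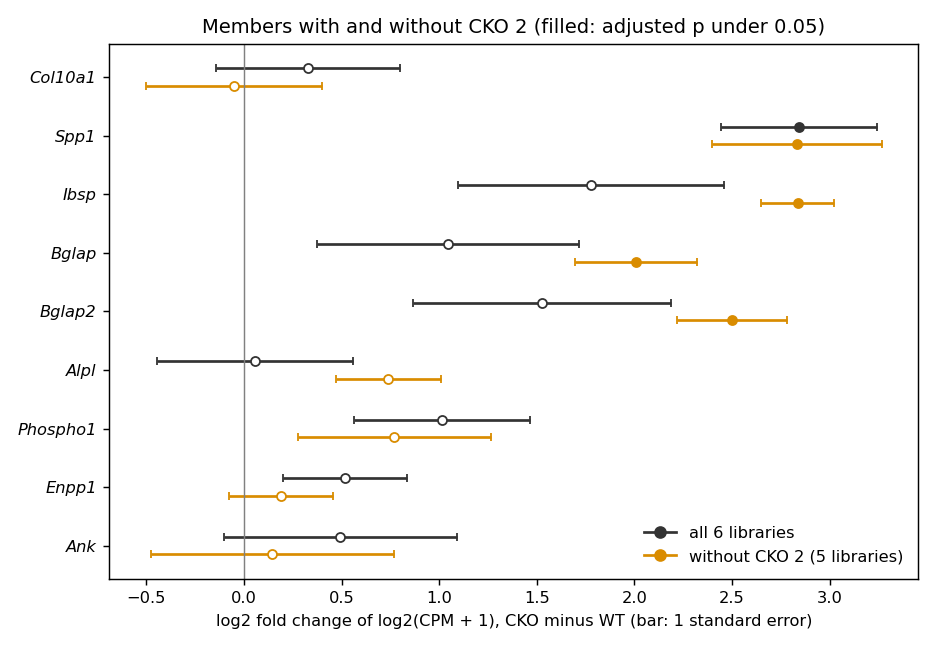
The log2FC of CKO minus WT on the log2(CPM + 1) scale is plotted for 9 members, with bars of 1 standard error, from all 6 libraries in dark grey and without CKO 2 in orange, and filled points have limma adjusted p under 0.05. Spp1 is filled in both, Ibsp, Bglap and Bglap2 are filled without CKO 2, and Dmp1 is left out because its reads were at the floor.

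The genes that set the balance of phosphate and pyrophosphate did not pass the adjusted threshold, with or without CKO 2. Alpl (ENSMUSG00000028766; chromosome 4, 137741733 to 137796384, minus strand) had 29.7, 24.0 and 16.9 CPM in WT 1, WT 2 and WT 3, and 39.9, 8.66 and 38.1 CPM in CKO 1, CKO 2 and CKO 3. CKO 2 was below every WT library, whereas CKO 1 and CKO 3 were above every WT library and together 4.52-fold above CKO 2 (95% interval 2.48 to 9.03). The log2FC was 0.056 (SE 0.50, 95% interval -1.05 to 1.17, limma adjusted p = 0.965), and without CKO 2 it was 0.74 (limma adjusted p = 0.112). The sign depended on the libraries used: the log2FC was -0.15 without WT 3, -0.30 without CKO 1 and -0.27 without CKO 3.

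Phospho1 (ENSMUSG00000050860; chromosome 11, 95824499 to 95832140, plus strand) had 2.17, 7.50 and 4.22 CPM in WT 1, WT 2 and WT 3, and 8.94, 13.7 and 6.93 CPM in CKO 1, CKO 2 and CKO 3. These are 18 reads in WT and 40 in CKO, summed over libraries. Its log2FC was 1.01 (SE 0.45, 95% interval 0.013 to 2.01, limma adjusted p = 0.229), and WT 2 lay above CKO 3. Part of the Phospho1 transcript, 300 bases or more at 90% identity or above, matches a transcript annotated to Zfp652. The assignment of reads from there is therefore uncertain.

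The pyrophosphate genes were highest in CKO 2 among the libraries labelled CKO. Enpp1 (ENSMUSG00000037370; chromosome 10, 24637914 to 24712159, minus strand) had 21.7, 28.5 and 33.8 CPM in WT 1, WT 2 and WT 3, and 37.1, 63.5 and 26.9 CPM in CKO 1, CKO 2 and CKO 3, a log2FC of 0.52 (SE 0.32, 95% interval -0.19 to 1.22, limma adjusted p = 0.383). Ank (ENSMUSG00000022265; chromosome 15, 27466677 to 27594909, plus strand) had 7.25, 6.0 and 38.0 CPM in WT 1, WT 2 and WT 3, and 12.4, 28.9 and 14.7 CPM in CKO 1, CKO 2 and CKO 3, a log2FC of 0.49 (SE 0.60, 95% interval -0.83 to 1.82, limma adjusted p = 0.686). WT 3 alone was above all libraries labelled CKO for Ank, at 5.73 times WT 1 and WT 2 pooled (95% interval 3.25 to 10.5).

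Col10a1, the defining gene of hypertrophic cartilage, did not separate the genotypes. Col10a1 (ENSMUSG00000039462; chromosome 10, 34389981 to 34397085, plus strand) had 13.0, 15.8 and 43.9 CPM in WT 1, WT 2 and WT 3, and 24.8, 45.5 and 16.5 CPM in CKO 1, CKO 2 and CKO 3. WT 3 was 3.05 times WT 1 and WT 2 pooled (95% interval 1.98 to 4.75), and CKO 2 was 2.16 times CKO 1 and CKO 3 pooled (95% interval 1.48 to 3.15). The log2FC was 0.33 (SE 0.47, 95% interval -0.71 to 1.37, limma adjusted p = 0.738), and without CKO 2 it was -0.049. Col10a1 had 91 reads in WT and 118 in CKO, summed over libraries, and its libraries differed within each genotype by more than counting error. With both pairs merged, the log2FC was 0.29 for Col10a1, -0.18 for Alpl, 1.07 for Phospho1, 0.63 for Enpp1 and 0.27 for Ank (limma adjusted p from 0.403 to 0.932).

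Of the 10 members, 4 (Spp1, Ibsp, Bglap2 and Phospho1) met the study's own criterion of a log2FC above 1 with an unadjusted p under 0.05. Of all genes tested, 5.3% met it in this direction and 5.1% in the other. Without CKO 2, 4 members were called higher, Spp1, Ibsp, Bglap and Bglap2, where 5.74% of the genes then tested were called higher. The members therefore fell into sets by their level in CKO 2. Among the 8 members whose mean was 10 CPM or more, 4 were at least 2-fold lower in CKO 2 than in both CKO 1 and CKO 3, namely Ibsp, Bglap, Bglap2 and Alpl, which was so for 5.33% of the 6827 genes at that level. Bglap and Bglap2 are near copies and do not count as independent genes here. Bglap reached a mean of 10 CPM only through CKO 1 and CKO 3. The other 4, Spp1, Col10a1, Enpp1 and Ank, were higher in CKO 2 than in CKO 1. CKO 2 was at least 2-fold above both CKO 1 and CKO 3 for 0 members and for 348 of the 6827 genes. Of these other 4 members, Spp1 had the smallest spread, at 5.65, 6.04 and 6.12 times the WT mean in CKO 1, CKO 2 and CKO 3.

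**Figure D3:**
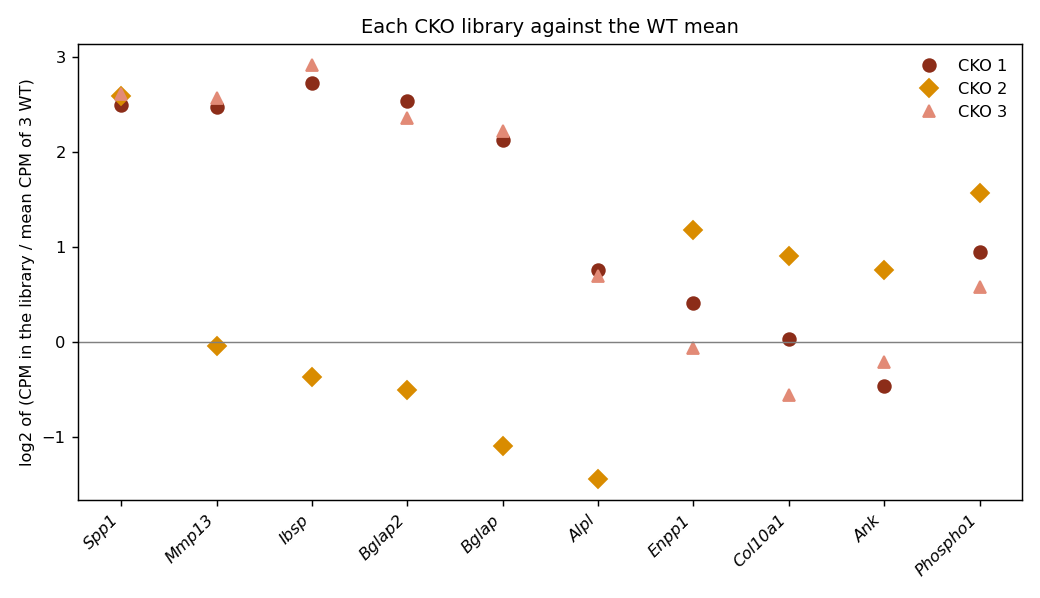
The level of CKO 1, CKO 2 and CKO 3 relative to the mean of the 3 WT libraries is plotted on a log2 axis for 9 members and for Mmp13, with 0 marking the WT mean. The 3 points lie together for Spp1, CKO 2 lies below the other 2 points from Mmp13 to Alpl, and above them from Enpp1 to Phospho1.

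Mmp13 encodes collagenase 3, the protease that degrades cartilage collagen at the end of hypertrophy, and osteoblasts also make it. CKO 1 and CKO 3 were at 5.53 and 5.91 times the WT mean and CKO 2 at 0.969 times it, from 523 reads in CKO 2 and 5788 in the other 2 libraries. Its log2FC of 1.81 (SE 0.61) met the study's criterion (limma unadjusted p = 0.0139) but missed the adjusted threshold (limma adjusted p = 0.118). Without CKO 2 it was 2.66 (limma adjusted p = 9.29e-04). With CKO 1 and CKO 3 as 1 library it was 1.38 (limma adjusted p = 0.326), and with both pairs merged 1.16 (limma adjusted p = 0.579). Over all genes tested, the median log2FC was 0.013, and limma called 3.18% higher and 2.6% lower. Of the 17 other hypertrophic genes listed, 16 were in the table and 14 were tested, with a median log2FC of -0.13, and 1 was called by limma, in the lower direction. This was Cdkn1c, which encodes the cell cycle inhibitor p57 of chondrocytes leaving proliferation. It fell from 168 ± 17.2 CPM (SD, n = 3) to 56.8 ± 20.1 CPM (SD, n = 3), a log2FC of -1.61 (SE 0.27, limma adjusted p = 0.00788), and limma adjusted p was 0.0517 without WT 1 and 0.0559 without WT 2.

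Among the regulators of hypertrophy, Runx2, Sp7 and Ihh had few reads. Runx2, a master regulator of hypertrophy and of osteoblasts, had 9 reads in WT and 3 in CKO, summed over libraries (log2FC -0.997, limma adjusted p = 0.411). Sp7 (osterix) had 11 and 17 reads (log2FC 0.46, limma adjusted p = 0.549). Ihh, the signal of prehypertrophic chondrocytes, had 2 reads and 1 read and was not tested. Pth1r, the receptor for the signal that delays hypertrophy, had 216 reads in WT and 120 in CKO, summed over libraries, without overlap of the groups (log2FC -0.91, limma unadjusted p = 0.0049, limma adjusted p = 0.0661). In the lower direction, the groups did not overlap for 1603 of the 12155 genes tested. Mef2d, a transcription factor, had 44 and 85 reads (log2FC 0.95, unadjusted p = 0.0234, limma adjusted p = 0.157), and Foxa3, another, had 90 and 77 (log2FC -0.064, limma adjusted p = 0.955). Vegfa, the vessel growth factor of hypertrophic cartilage, had WT and CKO means of 8.75 ± 3.12 and 10.7 ± 3.87 CPM (SD, n = 3 each) (log2FC 0.26, limma adjusted p = 0.740).

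Of 24 other mineralization genes listed, 22 were in the table and 19 were tested, and 3 were called higher and 3 lower, with a median log2FC of -0.33. Over all genes tested, 3.18% were called higher and 2.6% lower, with a median of 0.013. The genes that rose were Slc20a1, Anxa2 and Nt5e. Slc20a1 encodes a phosphate importer and had 2.17, 4.50 and 6.76 CPM in WT 1, WT 2 and WT 3 against 16.5, 25.3 and 21.7 CPM in CKO 1, CKO 2 and CKO 3, a log2FC of 2.09 (SE 0.39, limma adjusted p = 0.0144). It did not pass without WT 1, WT 2 or CKO 3 (limma adjusted p = 0.0551, 0.0605 and 0.0700). Anxa2, a calcium-binding annexin of matrix vesicles, had WT and CKO means of 2155 ± 120 and 4047 ± 263 CPM (SD, n = 3 each), a log2FC of 0.91 (SE 0.13, limma adjusted p = 0.00505). Nt5e, whose product makes adenosine and phosphate from AMP, had a log2FC of 0.79 (limma adjusted p = 0.0421), and limma adjusted p ranged from 0.0910 to 0.122 with each of the libraries other than CKO 2 left out in turn.

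The mineralization genes that fell were Ucma, Omd and Vkorc1. Ucma encodes a Gla protein of cartilage that binds calcium, and it fell from 1141, 1075 and 2223 CPM in WT 1, WT 2 and WT 3 to 149, 124 and 143 CPM in CKO 1, CKO 2 and CKO 3 (log2FC -3.33, SE 0.25, limma adjusted p = 1.22e-04). Omd encodes osteomodulin, a small proteoglycan of mineralized matrix, and had 83 reads in WT and 17 in CKO, summed over libraries (log2FC -2.09, limma adjusted p = 0.0107, and 0.0624 and 0.0672 without WT 1 and without WT 2). Vkorc1, which recycles the vitamin K needed for osteocalcin and other Gla proteins, had a log2FC of -1.07 (limma adjusted p = 0.0309), and limma adjusted p ranged from 0.0627 to 0.101 with each of the libraries other than CKO 2 left out in turn. Smpd3, a sphingomyelinase needed for skeletal mineralization, had a log2FC of -1.11 (limma adjusted p = 0.0679, and 0.0330 without CKO 2). Mgp, the matrix Gla protein that inhibits calcification, had a log2FC of 0.55 (limma adjusted p = 0.213, and 0.0194 without WT 3). Mepe was not analysed here.

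Of 21 other osteoblast genes listed, 18 were in the table and 15 were tested, with a median log2FC of -0.61, and the 2 called by limma, Col1a2 and Omd, were lower. The median over all genes tested was 0.013, and 2.6% were called lower. Col1a1 and Col1a2 encode collagen I, the main collagen of bone. Col1a1 had 269.6, 359 and 541 CPM in WT 1, WT 2 and WT 3, and 245, 240.4 and 269 CPM in CKO 1, CKO 2 and CKO 3 (log2FC -0.57, limma adjusted p = 0.179). Col1a2 fell from 605 ± 146 CPM (SD, n = 3) to 283 ± 62.0 CPM (SD, n = 3), a log2FC of -1.09 (SE 0.22, limma adjusted p = 0.0191, and 0.0863 without WT 2 and 0.0594 without CKO 3).

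**Figure D4:**
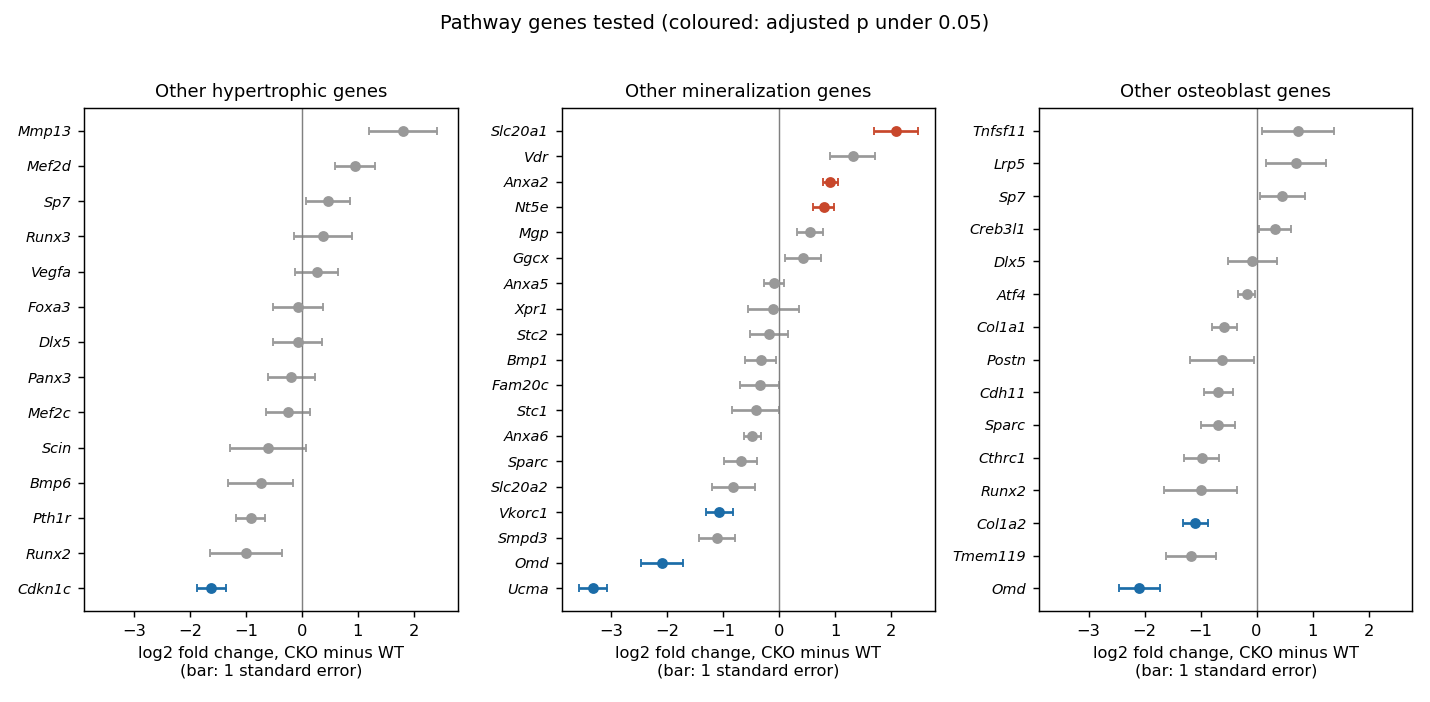
The log2FC of CKO minus WT with bars of 1 standard error is plotted for the genes tested of the 3 other lists, with limma adjusted p under 0.05 in red where higher and in blue where lower. The coloured genes are Cdkn1c, Slc20a1, Anxa2, Nt5e, Vkorc1, Omd, Ucma and Col1a2, and genes in 2 lists, such as Omd, appear in both panels.

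The libraries carried the markers of cartilage at far higher levels than those of macrophages and the cell types that follow below. The summed level of 8 chondrocyte genes was 21826 to 26932 CPM in the libraries labelled WT and 5281 to 5319 CPM in those labelled CKO, and 6 of the 8 were called lower, by limma adjusted p under 0.05. The other osteoblast list summed to 5269 to 10959 CPM in WT and 3670 to 4974 CPM in CKO, near the chondrocyte sum in CKO. Most of it was Sparc, at 3628 to 8565 CPM in WT and 2396 to 3690 CPM in CKO. Spp1 alone was above the chondrocyte sum in CKO, at 11114 to 12045 CPM. The summed level of the 9 macrophage genes was 65.2, 63.8 and 302 CPM in WT 1, WT 2 and WT 3 and 185 to 204 CPM in the libraries labelled CKO, with Ptprc, the pan-leukocyte gene, at 0 in all libraries but CKO 2. The 7 macrophage genes tested all had a positive log2FC, with a median of 0.93, and 1 of them was called. A positive log2FC was found for 6180 of the 12155 genes tested. Without CKO 2, 5 of the 6 macrophage genes then tested had a positive log2FC, with a median of 0.58. Mrc1 had 3 reads in WT and 0 in CKO, summed over libraries, and was not tested. Csf1r, the receptor of the macrophage growth factor, had 5 reads in WT, all in WT 3, and 3, 10 and 4 reads in CKO 1, CKO 2 and CKO 3. C1qc had 5 reads in WT and 17 in CKO, C1qb 8 and 18, and Adgre1 9 and 16, summed over libraries, with the groups overlapping for each. Cd68, which macrophages share with osteoclasts and other cells rich in lysosomes, was called higher in CKO (limma adjusted p = 0.00114), at 6.75 to 11.8 CPM in WT and 76.3, 46.9 and 76.3 CPM in CKO 1, CKO 2 and CKO 3. Lyz2, the highest of the list, was at 270.3 CPM in WT 3 and 51.5 to 115 CPM elsewhere. Its mean was 126 CPM in WT and 110 CPM in CKO. Osteoclast genes summed to 89.9 to 97.99 CPM in WT and 107 to 119 CPM in CKO, most of it Ctsk at 81.9 to 108 CPM, while Oscar was at 0 in all libraries but CKO 2. Acp5, which encodes the osteoclast phosphatase TRAP, had 3, 1 and 11 reads in WT 1, WT 2 and WT 3 and 18, 11 and 11 reads in CKO 1, CKO 2 and CKO 3 (unadjusted p = 0.0301, limma adjusted p = 0.180). The 4 osteoclast genes tested all had a positive log2FC, with a median of 0.42, and 0 were called. Of these, Atp6v0d2 had 5 reads in WT and 4 in CKO, summed over libraries (log2FC 0.043, limma adjusted p = 0.982). Mmp9 had 2 and 7 reads. Spp1 is also made by macrophages and osteoclasts, and the part of these cells in its difference was not tested. Endothelial genes summed to at most 3.61 CPM and granulocyte genes to at most 5.77 CPM in any library. Muscle genes summed to 33.8 to 157 CPM, highest in WT 3, and keratinocyte genes to 17.7 to 44.8 CPM, nearly all of it Krt10. The erythroid genes were highest in CKO 2, at 28.9 CPM against 0.724 to 6.07 CPM elsewhere, and Tnmd, a tendon gene, was highest in WT 3, at 146 CPM against 29.6 to 36.8 CPM. The part of other tissue in the separate levels of CKO 2 and WT 3 was not tested.

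Over the 6 libraries, the genes most like 3 of the members were found by Pearson's r of log2(CPM + 1) among the 5022 genes whose mean was 20 CPM or more, as a description without a test, since the libraries share genotype and near-alike pairs. Nearest to Spp1 were Uqcc3, Rhoc and Stip1 (r = 0.998, 0.997 and 0.994), each higher in all libraries labelled CKO than in WT. Rhoc, for example, had 251, 256 and 317 CPM in WT 1, WT 2 and WT 3 and 401 to 420.1 CPM in the libraries labelled CKO. Nearest to Ibsp were Flot1, Mrpl36 and Glmp (r = 0.987, 0.981 and 0.980), whose range was narrower, as with Flot1 at 66.0 to 70.3 CPM in WT and 109, 62.1 and 101 CPM in CKO 1, CKO 2 and CKO 3. Nearest to Col10a1 were Me1, Pole3 and Slc38a4 (r = 0.997, 0.991 and 0.983), and Slc38a4 had 42.2 CPM in WT 3 and 59.2 CPM in CKO 2 against 12.3 to 24.8 CPM in the other libraries.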

How the data were processed

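The authors deposited 1 table for the series with gene-level counts per 1000000 reads (CPM) for 6 libraries of poly(A) RNA made with a stranded kit. The submitters' processing notes name cutadapt 2.5, HISAT2 and featureCounts 1.6.3, and the genome build and the strand setting of the counting are not given in the sources used here. Columns were matched to the labels by genotype and replicate number. Values of each library were whole multiples of the CPM of 1 read (100% within 0.01 read), so reads were recovered and library totals were 1153871 to 1454094.

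log2(CPM + 1) was fitted for the 12155 genes whose mean was 1 CPM or more, on genotype with limma 3.58.1 in R 4.3.3 (empirical Bayes with a trend, two-sided), with Benjamini-Hochberg adjustment over all genes tested. Called means an adjusted p under 0.05, and the study's criterion is p under 0.05 together with a log2 fold change beyond 1 or -1. In data simulated from these libraries with a log2 change of 2, 62.1% of 190 changed genes tested were recovered by limma, with 3 false calls among 12097 genes. The simulated libraries were drawn independently, without the near-alike pairs. The false calls therefore do not measure the errors that such pairs can bring. The recovered reads were tested with edgeR 4.0.16 and DESeq2 1.42.0 as alternatives, beside a pseudocount of 0.1, no filter, TMM scaling, a replicate block and each library left out. Counting CKO 1 and CKO 3, or these and WT 1 and WT 2, as 1 library was added after seeing the data.

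The members and the gene lists were chosen with earlier results of these data known. Named are the members, listed genes past the adjusted threshold, preset genes of the lists (Mmp13, Runx2, Sp7, Ihh, Col1a1, Col1a2, Bglap3, Mepe, Smpd3, Slc20a1, Mgp, Vegfa), defining markers, and the 3 genes most like Col10a1, Spp1 and Ibsp. Acp5, Atp6v0d2, Mmp9, Csf1r, C1qb, C1qc, Adgre1, Mrc1, Sparc, Pth1r, Mef2d and Foxa3 were added after their values were seen. Gene positions are those of GENCODE M21 (GRCm38) matched by Ensembl identifier, exon lengths are from the same annotation, and promoter windows are from RefSeq (GRCm38.p6).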

Additional observations from a re-analysis of the deposited data

How the results depend on the processing

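Spp1 kept its direction under all alternatives and passed the adjusted threshold in each but the one with CKO 1 and CKO 3 as 1 library and WT 1 and WT 2 as 1 library, where its log2 fold change was 2.54. Of 344 values of single genes under alternatives, 298 kept their direction and their side of the threshold, 32 no longer passed, 8 newly passed and 6 changed sign. With each library left out in turn, Col10a1 ranged from -0.049 (without CKO 2) to 0.84 and Alpl from -0.30 to 0.74. The sign changes were Col10a1 without CKO 2 and Alpl without WT 3 (-0.15), without CKO 1 (-0.30), without CKO 3 (-0.27), with CKO 1 and CKO 3 as 1 library (-0.28) and with both pairs merged (-0.18), and the cause was not tested. With each library left out in turn, 123 to 692 genes were called higher and 79 to 606 lower, against 387 and 316, and the counts were lowest without CKO 3 and without WT 2 and highest without CKO 2. The members called then numbered 1 to 4 and those past the criterion 1 to 4, and the genes called of the other hypertrophic, mineralization and osteoblast lists 0 to 2, 2 to 7 and 0 to 2. With CKO 1 and CKO 3 as 1 library, 142 genes were called higher and 123 lower, and 1 member was past the criterion. With WT 1 and WT 2 also as 1 library, which leaves 2 libraries per genotype, 5 genes were called higher and 6 lower, 0 members were called and 1 was past the criterion, and the 3 lists held 0, 1 and 0 called genes. By edgeR, 380 genes met the criterion in the higher direction, against 644 by limma. The edgeR fit used its own filter on reads, which left out Dmp1 and Bglap, so these counts are over different sets of genes.

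The replicate numbers did not pair the libraries: the correlations of same-numbered libraries, as deviations from their group means, were 0.038, -0.13 and -0.10. With the replicate block, 225 genes were called higher and 160 lower, and 2 of the other hypertrophic list, where Mmp13 then passed (limma adjusted p = 0.0472). Dmp1, Bglap and Phospho1 had under 50 reads over the libraries of WT, and Dmp1 was at or under the floor in each library.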
